A study of Rattus norvegicus with 18 samples.

Results

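The transcripts described here are those of 8 rat genes of the integrated stress response and the unfolded protein response: Atf4, Atf5, Ddit3, Trib3, Asns, Chac1, Sesn2 and Xbp1. They were taken by gene symbol from a table of 33657 genes, in which each symbol names 1 protein-coding gene, and all 8 were among the 11945 genes that had at least 1 FPKM (sequenced fragments per unit of gene length and of library size) in at least 3 samples. The RNA came from the livers of male rats, 18 weeks old, in 6 groups with 3 libraries each. The groups were rats given orlistat, obese rats given water (the obese control) and normal rats given water (the normal control). The other 3 groups were fed plantain at a low, a medium or a high dose. The treatment labels name obesity for the obese control only. Orlistat is a lipase inhibitor used against obesity and was the positive control. The labels give neither the strain, the plantain dose amounts, the way obesity was produced, nor whether each library of a group is a different animal. A p-value therefore reflects only how far these libraries differ, and that spread may be partly technical.

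In the integrated stress response, several kinases phosphorylate the translation factor eIF2, which slows protein synthesis while the messenger RNA of the transcription factor ATF4 is translated more. ATF4 and its partners then switch on genes for amino acid supply, glutathione breakdown and, through CHOP (the product of Ddit3), cell death. Because ATF4 and ATF5 are controlled largely at translation, their transcript levels are not a measure of their protein. XBP1 belongs to a neighbouring pathway: the endoplasmic reticulum (ER) sensor IRE1 cuts an intron out of the Xbp1 transcript, and the protein made from the spliced form drives genes for protein folding, transport and disposal. In mouse liver XBP1 is also known for its part in fat synthesis. A gene-level table cannot separate spliced from unspliced Xbp1.

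Reads assigned to genes, as recovered from the deposited FPKM, numbered 16.6 to 26.2 M per library (M for mega). The normal control libraries had the most (25.5 to 26.2 M, against at most 24.3 M elsewhere), and a high-dose library had the fewest. The 8 genes rested on very different numbers of these reads. Atf5 had at least 4112 reads and Xbp1 at least 2160 in every library, whereas Trib3 had 41 to 166, Asns 27 to 122 and Chac1 19 to 89. The coefficient of variation within a group was at most 2.33% for Atf5 and 3.70% for Xbp1, and reached 31.6% for Chac1. All 10 hepatocyte markers checked had at least 1 FPKM in every library, and the pancreatic genes Prss1, Prss2, Pnlip and Ptf1a were at 0 in all 18. In whole liver, fewer cells of a type and less RNA per cell cannot be told apart. The summed level of 11 Kupffer cell (liver macrophage) markers was 331 to 351 FPKM with orlistat and 317 to 327 FPKM in the obese control; it was 402 to 413 FPKM at the low dose, 262 to 270 FPKM at the medium dose, 267 to 272 FPKM at the high dose and 189 to 190 FPKM in the normal control. The sum of 9 endothelial markers was 110 to 111 FPKM with orlistat and 71.1 to 71.4 FPKM in the obese control; it was 104 to 105, 104 to 106 and 122 to 125 FPKM along the 3 doses, and 52.7 to 54.2 FPKM in the normal control. The part of these markers in the results was not tested.

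Sequence upstream of the 8 genes was read from the RefSeq promoter table of the rat build GRCr8, in which all 8 matched by symbol, as 250 bases before to 50 bases after the annotated start. The windows of Trib3, Chac1 and Xbp1 are shown because they alone among the 8 held one of the response elements searched for. Capitals mark the match, and positions are counted from the start site, with -1 for the base before it. Trib3 lies at chr3:161275484-161275783 on the minus strand, Chac1 at chr3:126795881-126796180 on the plus strand and Xbp1 at chr14:84604373-84604672 on the plus strand.
Trib3: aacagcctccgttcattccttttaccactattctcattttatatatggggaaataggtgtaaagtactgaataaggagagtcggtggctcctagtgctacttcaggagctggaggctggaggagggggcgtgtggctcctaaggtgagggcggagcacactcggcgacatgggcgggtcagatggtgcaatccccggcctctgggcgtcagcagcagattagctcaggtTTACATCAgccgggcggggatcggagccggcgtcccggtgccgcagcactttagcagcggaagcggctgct
Chac1: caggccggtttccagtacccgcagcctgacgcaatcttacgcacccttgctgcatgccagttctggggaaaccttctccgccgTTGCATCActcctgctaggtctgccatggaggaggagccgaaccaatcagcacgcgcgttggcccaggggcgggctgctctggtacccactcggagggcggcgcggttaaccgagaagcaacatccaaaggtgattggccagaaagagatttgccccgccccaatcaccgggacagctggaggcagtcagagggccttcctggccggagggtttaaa
Xbp1: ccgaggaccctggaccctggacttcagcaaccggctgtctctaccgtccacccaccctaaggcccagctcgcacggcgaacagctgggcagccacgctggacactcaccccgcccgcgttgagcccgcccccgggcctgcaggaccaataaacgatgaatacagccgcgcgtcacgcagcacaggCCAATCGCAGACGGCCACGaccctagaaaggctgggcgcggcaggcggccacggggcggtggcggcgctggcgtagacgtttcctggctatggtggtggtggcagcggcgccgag
The C/EBP-ATF response element, to which ATF4 binds with C/EBP partners, was searched as TTNCATCA on both strands. It was found in 2 of the 8 windows, in Trib3 from position -21 and in Chac1 from position -167, and in 3.98% of all 33469 promoter windows in the table. Its longer form ATTGCATCA, held by 0.188% of windows, was in none of the 8. The ER stress element, to which ATF6 and XBP1 bind with NF-Y, was searched as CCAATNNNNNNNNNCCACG; it was held by the Xbp1 window from position -65 and by 0.0657% of all windows. The related ER stress element II (0.0508% of windows) and the element TGACGTGG (0.595%) were in none of the 8. The parts of the ER stress element alone were common: CCAAT was in 37.5% of windows and 4 of the 8, and CCACG in 31.6% of windows and 6 of the 8, and both overlap the full element in Xbp1. A match of letters is a description and not a binding site.

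**Figure D1:**
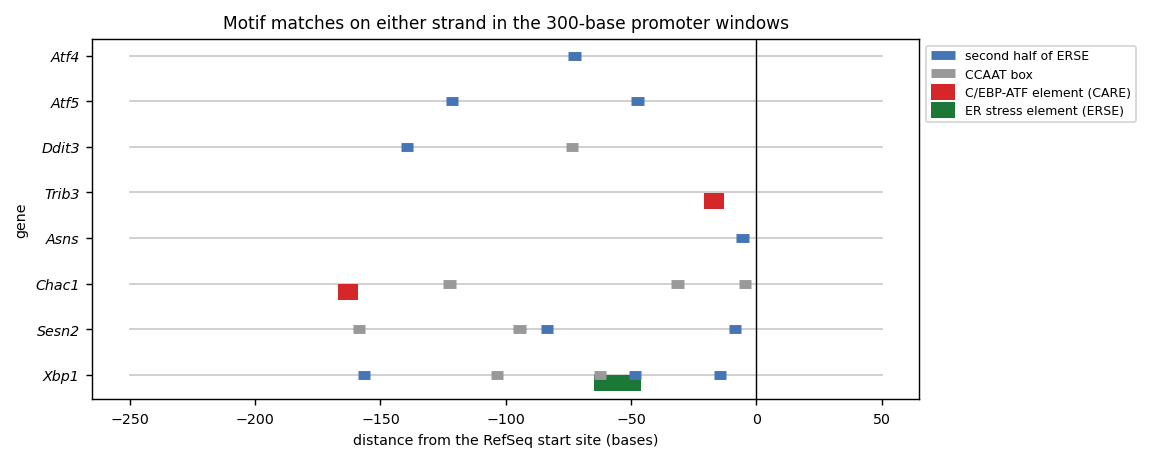
Motif matches in the 8 promoter windows (rows), by distance in bases from the RefSeq start site (vertical line); red bars are the C/EBP-ATF element, green the ER stress element, grey CCAAT and blue CCACG, on either strand. Red bars stand only in Trib3 and Chac1, and the green bar only in Xbp1.

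Atf5 (ENSRNOG00000020060, chromosome 1, 100808241 to 100810522 on the minus strand as the table gives it, build not named) encodes a transcription factor abundant in liver that, like ATF4, is translated more when eIF2 is phosphorylated. In the obese control it had the highest FPKM of the 8 genes. Its values were 550.2, 552 and 542 FPKM in the obese control, against 181, 186 and 178 FPKM in the normal control. The obese control was 3.02 times as high (log2 difference of FPKM + 1 1.59 ± 0.02, SE; limma adjusted p = 3.3e-17), and 0.779% of all tested genes differed by as much or more. The SE comes from the fit of all 6 groups and is the same for a gene in every comparison of 2 groups. All 3 libraries of the obese control lay far above all 3 of the normal control.

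Each of the treatments had less Atf5 than the obese control. With orlistat it had 231, 224 and 229.7 FPKM (-1.26 ± 0.02, limma adjusted p = 1.5e-15). Along the plantain series, starting from the obese control mean of 548 FPKM, it had 358, 357 and 356 FPKM at the low dose, 302, 289.7 and 298 FPKM at the medium dose, and 259, 257 and 264 FPKM at the high dose. Each step down was larger than the spread: the difference from the obese control was -0.62, -0.88 and -1.07 (SE 0.02 each; limma adjusted p = 4.8e-12, 6.4e-14 and 1.1e-14), and the medium dose was below the low dose (-0.27, adjusted p = 1e-07) and the high dose below the medium dose (-0.19, adjusted p = 8.1e-06). Both steps between doses were smaller on another scale and still past the threshold: -0.17 with quantile normalization for medium against low dose (limma adjusted p = 5.5e-05) and -0.10 under TPM for high against medium dose (adjusted p = 0.0031). No 2 of the 6 groups overlapped, in the order obese control, low, medium and high dose, orlistat, normal control. Every treatment had more Atf5 than the normal control, with differences of 0.33 with orlistat and 0.97, 0.71 and 0.52 at the low, medium and high dose, all past the threshold.

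Atf4 (ENSRNOG00000017801, chromosome 7, 121480723 to 121482772, plus strand) encodes the central transcription factor of the response. It had 43.0, 43.3 and 42.8 FPKM in the obese control, against 45.0, 49.7 and 47.6 FPKM in the normal control (-0.14 ± 0.04, limma adjusted p = 0.0052; -0.26 under TPM, the FPKM of each library rescaled to a common sum, adjusted p = 4e-06). Orlistat libraries had 37.7, 39.2 and 36.8 FPKM. The low dose had 48.5, 46.5 and 48.5 FPKM, the medium dose 40.4, 37.7 and 38.3 FPKM and the high dose 37.6, 38.1 and 39.5 FPKM. Atf4 thus varied little, with a ratio of 1.26 between the highest and lowest group mean, and the groups formed a high pair (low dose and normal control) and a low trio (medium dose, high dose and orlistat) whose members overlapped, with the obese control between them. Relative to the obese control it was higher at the low dose (0.15, adjusted p = 0.0054) and lower with orlistat (-0.18, adjusted p = 0.00064) and at the medium (-0.15, adjusted p = 0.0042) and high dose (-0.16, adjusted p = 0.0017). The 3 lower values depended on the scale: under TPM the differences were -0.02 with orlistat, -0.06 at the medium dose and 0.01 at the high dose, and none was past the threshold (limma adjusted p = 0.70, 0.18 and 0.74). On recovered reads they were -0.10, -0.09 and -0.09, and with quantile normalization that of orlistat was -0.12 and that of the high dose -0.09, all past the threshold.

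Ddit3 (ENSRNOG00000006789, chromosome 7, 70580198 to 70585084, plus strand) encodes CHOP, a transcription factor that promotes cell death under prolonged ER stress. It was highest in the obese control, with 11.6, 11.1 and 12.1 FPKM, against 8.85, 8.42 and 9.83 FPKM in the normal control (0.33 ± 0.07, limma adjusted p = 0.00087). Orlistat had 8.43, 8.50 and 8.34 FPKM, the low dose 11.0, 8.94 and 8.91 FPKM, the medium dose 10.2, 9.13 and 8.97 FPKM, and the high dose 7.71, 7.83 and 8.19 FPKM. None of the treated libraries reached the lowest obese control library. Ddit3 fell with orlistat (-0.42, adjusted p = 0.00012) and at the low (-0.25, adjusted p = 0.011), medium (-0.27, adjusted p = 0.0052) and high dose (-0.50, adjusted p = 2.3e-05). None of the 4 treatments differed from the normal control past the threshold, with differences of -0.09 for orlistat and 0.08, 0.06 and -0.17 for the low, medium and high dose; the high dose passed without the second normal control library (-0.21, limma adjusted p = 0.041). Under TPM the difference of orlistat from the obese control was -0.28 (adjusted p = 0.0057). The call at the low dose was lost without the second low-dose library (adjusted p = 0.056), without the third (0.057) and in a fit of those 2 groups alone (0.059).

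**Figure D2:**
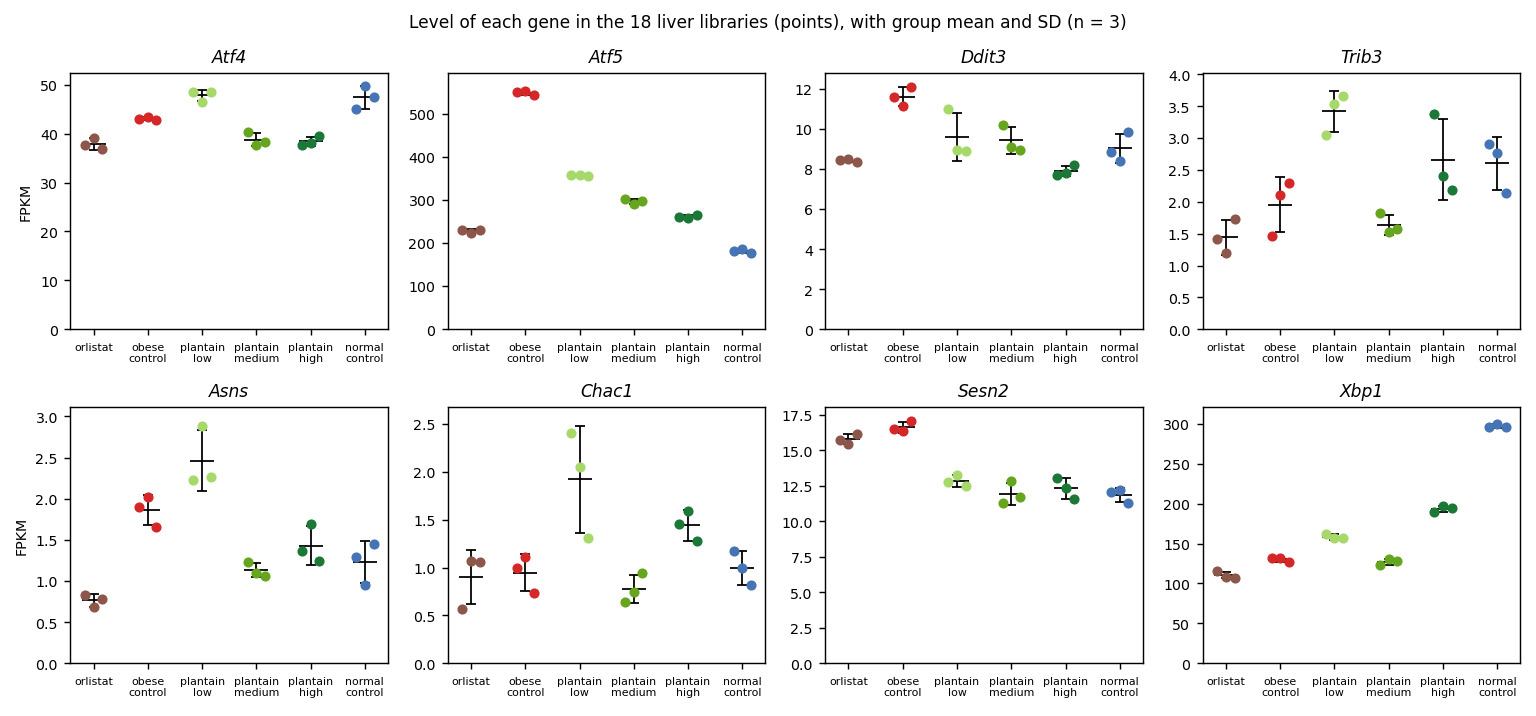
FPKM of each gene in the 18 libraries (points), with the mean (wide bar) and SD (whiskers) of the 3 libraries of a group; groups run from orlistat and obese control through the 3 plantain doses to the normal control. Atf5 steps down from 548 FPKM in the obese control to 260.1 FPKM at the high dose, and the Xbp1 mean is 297 FPKM for normal control livers, compared with 110.4 to 193 FPKM elsewhere.

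Trib3 (ENSRNOG00000007319, chromosome 3, 147813473 to 147819571, minus strand) encodes a pseudokinase, induced by ATF4 and CHOP, that is known to bind the insulin-signalling kinase AKT. It ranged from 1.19 to 3.67 FPKM over the 18 libraries. It had 1.47, 2.11 and 2.30 FPKM in the obese control, against 2.90, 2.77 and 2.13 FPKM in the normal control, which overlapped (-0.29 ± 0.13, limma adjusted p = 0.079). The low dose stood out, with 3.05, 3.54 and 3.67 FPKM, all above the obese control (0.59, adjusted p = 0.0030). The medium dose had 1.82, 1.53 and 1.57 FPKM (-0.15, adjusted p = 0.39) and the high dose 3.38, 2.41 and 2.19 FPKM (0.30, adjusted p = 0.069). With orlistat it had 1.42, 1.19 and 1.74 FPKM, the lowest mean of the 6 groups, which did not differ past the threshold from the obese control (-0.27, adjusted p = 0.11) and was lower than the normal control (-0.56, adjusted p = 0.0031). Ordered by mean, each neighbouring pair of groups overlapped. The high dose passed the threshold against the obese control under TPM (limma adjusted p = 0.014) and on recovered reads (0.034), as did the obese control against the normal control (0.029 and 0.039). The high dose also passed without the third obese control library (0.041) or the third high-dose library (0.035), the obese against the normal control without the third normal control library (0.036) or the third obese control library (0.045), and orlistat against the obese control without the first obese control library (-0.39, limma adjusted p = 0.027).

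Asns (ENSRNOG00000007546, chromosome 4, 33743364 to 33761163, minus strand) encodes asparagine synthetase, a classical ATF4 target. In the obese control it had 1.90, 2.02 and 1.66 FPKM, against 1.30, 0.950 and 1.45 FPKM in the normal control (0.36 ± 0.10, limma adjusted p = 0.0056). Orlistat libraries had 0.828, 0.681 and 0.786 FPKM, below every other library of the study, and Asns fell relative to the obese control (-0.70, adjusted p = 2.6e-05) and to the normal control (-0.33, adjusted p = 0.013). At the low dose it had 2.23, 2.89 and 2.26 FPKM, above every other library (0.27 over the obese control, adjusted p = 0.047). At the medium dose it had 1.23, 1.10 and 1.06 FPKM (-0.42, adjusted p = 0.0029), and at the high dose 1.36, 1.69 and 1.24 FPKM (-0.24, adjusted p = 0.057). The high-dose difference passed in 4 alternatives: without the trend (limma adjusted p = 0.045), with quantile normalization (0.049), without the third obese control library (0.044) and without the second high-dose library (0.025). The difference between low dose and obese control is weakly held. It missed the threshold in 9 of 14 alternatives, including each fit that left out an obese control library. Limma adjusted p-values were 0.052 to 0.20 in those 9, and the lowest over all 14 was 0.038. The call of orlistat against the normal control was lost without the third normal control library (adjusted p = 0.067).

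Chac1 (ENSRNOG00000014387, chromosome 3, 111160205 to 111163425, plus strand) encodes an enzyme that breaks down glutathione and is induced by ATF4. It had the lowest median of the 8 genes over the 18 libraries, 1.06 FPKM. The obese control had 0.991, 1.11 and 0.733 FPKM, against 1.18, 0.998 and 0.821 FPKM in the normal control, with no difference past the threshold (-0.04 ± 0.14, limma adjusted p = 0.83). The low dose had 2.41, 2.05 and 1.31 FPKM, 2.03 times the obese control mean and above its highest library (0.57, adjusted p = 0.0056). At the medium dose it had 0.645, 0.750 and 0.939 FPKM (-0.13, adjusted p = 0.51). At the high dose it had 1.46, 1.59 and 1.27 FPKM, above all 3 obese control libraries but short of the threshold (0.33, adjusted p = 0.064). That difference passed under TPM (0.53, limma adjusted p = 0.019), on recovered reads (0.69, adjusted p = 0.049) and in a fit of those 2 groups alone (adjusted p = 0.040). Orlistat had 0.572, 1.07 and 1.06 FPKM and overlapped both controls.

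The added 1 FPKM shrinks the differences of the rarest genes. With 0.1 FPKM added in its place, the difference of Asns was 0.57 for the obese control against the normal control, -1.18 for orlistat against the obese control and -0.67 for the medium dose against the obese control. That of Chac1 was 0.93 for the low dose against the obese control. On recovered reads these were 0.57, -1.18, -0.66 and 0.97. The called differences between treated groups and against the normal control grew as well: with 0.1 FPKM added, Asns was at -0.61 for orlistat and 0.95 for the low dose against the normal control, 1.56 and 0.82 for the low and high dose against orlistat and -1.05 for the medium against the low dose, and Chac1 at 0.85 for the low dose against the normal control, 1.02 for the low dose against orlistat, -1.18 for the medium against the low dose and 0.82 for the high against the medium dose.

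Sesn2 (ENSRNOG00000042785, chromosome 5, 150684133 to 150704117, minus strand) encodes a leucine sensor that restrains the growth kinase complex mTORC1. It had 16.5, 16.3 and 17.1 FPKM in the obese control, against 12.1, 12.2 and 11.3 FPKM in the normal control (0.45 ± 0.05, limma adjusted p = 9.2e-07). The low dose had 12.8, 13.3 and 12.5 FPKM, the medium dose 11.3, 12.8 and 11.7 FPKM, and the high dose 13.0, 12.4 and 11.6 FPKM. Sesn2 fell to about the same level at each dose: -0.35, -0.45 and -0.40 relative to the obese control (adjusted p = 4.1e-05, 2.1e-06 and 4.3e-06), with no difference past the threshold among the 3 doses (limma F-test, adjusted p = 0.25) or between any dose and the normal control. Under TPM the high-dose difference from the obese control was -0.24 (adjusted p = 0.0022), and with quantile normalization the low dose passed against the normal control (0.14, limma adjusted p = 0.028). Orlistat libraries had 15.7, 15.5 and 16.2 FPKM, which lay just under the obese control and did not differ from it past the threshold (-0.07, adjusted p = 0.24). All 3 doses were lower than orlistat, with differences of -0.28, -0.38 and -0.33 from the low to the high dose (adjusted p = 0.00032, 2.7e-05 and 0.00016).

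Xbp1 (ENSRNOG00000010298, chromosome 14, 85753760 to 85758145, plus strand) followed an order of its own. It had 132, 132 and 127 FPKM in the obese control, against 296, 299 and 296 FPKM in the normal control. The obese control was lower (-1.18 ± 0.03, limma adjusted p = 1.7e-14), and the normal control level was 2.28 times as high. Orlistat had 115, 109 and 107 FPKM, below the obese control (-0.24, adjusted p = 4.7e-06), a call that was lost under TPM (-0.07, adjusted p = 0.14) and smaller with quantile normalization and on recovered reads (-0.15 each). The low dose had 162, 156 and 156 FPKM (0.28 over the obese control, adjusted p = 1.9e-06), the medium dose 123, 130.0 and 129 FPKM (-0.03, adjusted p = 0.36) and the high dose 189, 196 and 195 FPKM (0.57, adjusted p = 2.6e-10). The medium dose overlapped the obese control and lay below both other doses (-0.31 against the low dose, adjusted p = 8.5e-07), so the 3 doses did not form a series. The high dose was above the medium dose by 0.60 (adjusted p = 1e-09). Every treated group had less Xbp1 than the normal control too, with differences of -1.42 with orlistat and -0.90, -1.22 and -0.62 at the low, medium and high dose, all past the threshold. The ER stress element printed above lies in the promoter window of this gene.

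Counted over the 8 genes, the obese control differed from the normal control in 6: Atf5, Ddit3, Asns and Sesn2 were higher and Atf4 and Xbp1 lower. In that comparison 55.1% of all tested genes passed the threshold, and the median difference was 0.15 over the 8 genes and -0.00027 over all. Orlistat differed from the obese control in 5, all lower (Atf4, Atf5, Ddit3, Asns and Xbp1), beside 51.8% of all genes, 25.6% being lower; the count was 3 under TPM. The low dose differed from it in all 8, beside 33.0% of all genes, with Atf4, Trib3, Asns, Chac1 and Xbp1 higher and Atf5, Ddit3 and Sesn2 lower. The medium dose differed in 5, all lower (Atf4, Atf5, Ddit3, Asns and Sesn2), beside 41.9%, 20.1% being lower. The high dose differed in 5, with Xbp1 higher and Atf4, Atf5, Ddit3 and Sesn2 lower, beside 51.9%. The median difference over the 8 genes was -0.25 with orlistat and 0.21, -0.21 and -0.20 at the low, medium and high dose, and that over all genes was between -0.01 and 0.01. Counted in either direction, the 6 genes called between the controls and the 5 called for orlistat and for the high dose are near the shares of all genes. The 5 lower genes with orlistat and at the medium dose are a larger share of the 8 than the 25.6% and 20.1% of all genes that were lower. The 8 of 8 at the low dose are a larger share than 33.0%, and that count was 6 to 8 when a library was left out. The direction was read from these same values, and the 8 genes were chosen with earlier results of these data known. These shares are therefore a description and not a test. The 4 treatments share the 3 obese control libraries. TPM shifted the median of all genes by 0.14 with orlistat and by 0.15 at the high dose, and the TPM differences of Atf4 given above, -0.02 and 0.01, lie below these shifts.

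**Figure D3:**
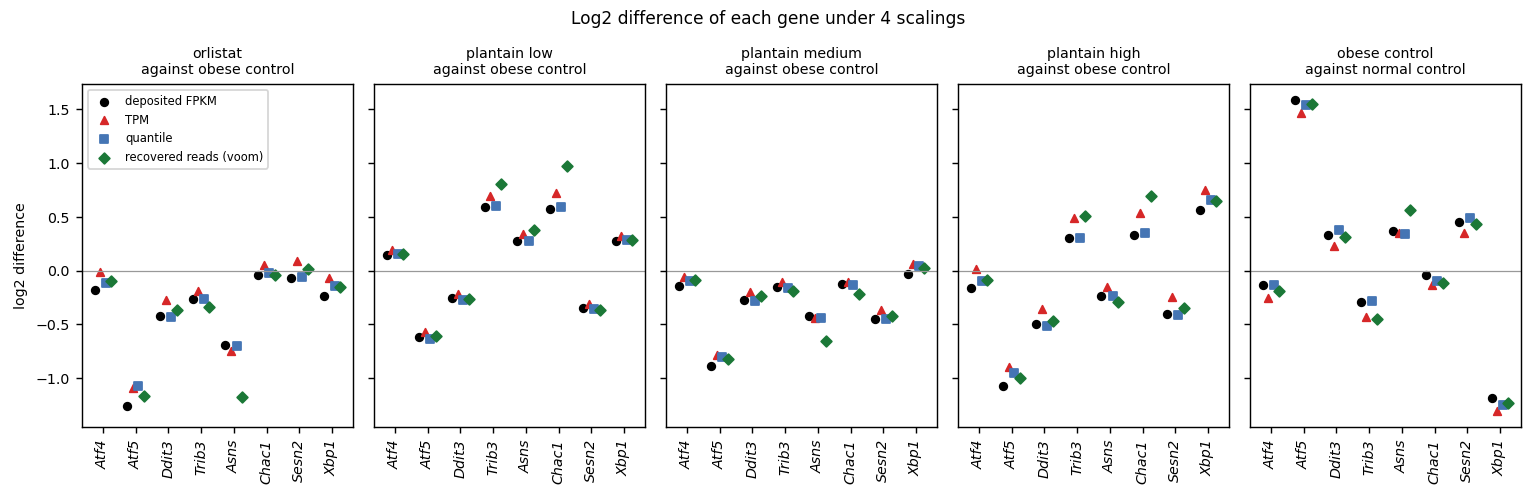
Log2 difference of each gene (x axis) in 5 comparisons (panels) on the deposited FPKM scale (circles), under TPM (triangles), after quantile normalization (squares) and on recovered reads (diamonds). The signs differ between scalings for Atf4 at the high dose (-0.16 and 0.01 under TPM), for Xbp1 at the medium dose (-0.03 and 0.06 under TPM) and for Chac1 and Sesn2 with orlistat (-0.04 and 0.05, and -0.07 and 0.09), and the signs of Atf5 do not.

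**Figure D4:**
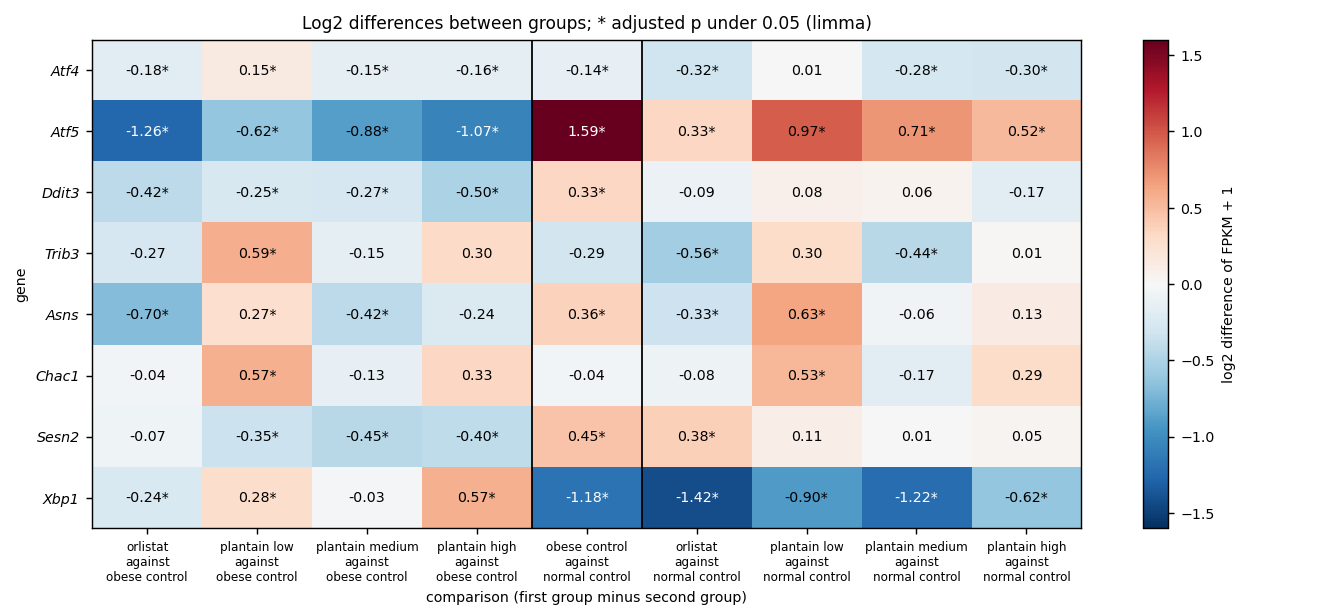
Log2 differences of FPKM + 1 (colour and number) for each gene (rows) and comparison (columns; first group minus second), with an asterisk where the limma adjusted p is under 0.05. Atf5 is negative in the 4 treatments against the obese control (-0.62 to -1.26) and positive in all 5 comparisons with the normal control, while Xbp1 is negative in all 5 comparisons with the normal control.

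Trib3, Asns, Chac1 and Atf4 all had their highest mean at the low dose, although for Atf4 that group overlapped the normal control. Immediate early genes, which respond to handling of the tissue as well as to signals, moved with it: the sum of 16 such genes was 371 to 380 FPKM at the low dose, against 282 to 286 FPKM in the obese control, and 11 of the 13 tested were higher and 0 lower (median 0.49). That sum was 263 to 273 FPKM with orlistat, 261 to 269 FPKM at the medium dose, 253 to 267 FPKM at the high dose and 333 to 339 FPKM in the normal control. Of the 11 Kupffer cell markers, 10 were higher at the low dose than in the obese control and 0 lower. Of all tested genes, 18.3% were higher and 14.8% lower in that comparison. The part of either list in the low-dose values was not tested.

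Set against the normal control, orlistat differed in 6 of the 8 genes, beside 44.1% of all genes, with Atf5 and Sesn2 higher and Atf4, Trib3, Asns and Xbp1 lower. The low dose differed in 4, beside 47.8%, with Atf5, Asns and Chac1 higher (0.97, 0.63 and 0.53) and Xbp1 lower; Trib3 passed in a fit of those 2 groups alone (0.30, limma adjusted p = 0.048). At the medium dose 4 differed, beside 45.3%, with Atf5 higher and Atf4, Trib3 and Xbp1 lower; Trib3 (-0.44) missed the threshold without the first normal control library (limma adjusted p = 0.056). At the high dose 3 differed, beside 42.4%, with Atf5 higher and Atf4 and Xbp1 lower. Atf5 and Xbp1 were the 2 genes that differed from the normal control in every other group.

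Set against orlistat, the high dose differed in 5 of the 8 genes, beside 15.1% of all genes. Xbp1 (0.80), Trib3 (0.57), Asns (0.46) and Atf5 (0.19) were higher and Sesn2 (-0.33) lower; Trib3 missed the threshold in a fit of those 2 groups alone (limma adjusted p = 0.051). The medium dose differed in 3, beside 26.9%, with Atf5 (0.38) and Xbp1 (0.20) higher and Sesn2 lower. The low dose differed in 7, beside 36.8%, with Asns (0.97), Trib3 (0.86), Atf5 (0.64), Chac1 (0.61), Xbp1 (0.52) and Atf4 (0.33) higher and Sesn2 lower. Sesn2 was thus lower, and Atf5 and Xbp1 higher, than with orlistat at each of the 3 doses. On other scales these differences included 0.12 for Atf5 at the high dose (quantile normalization), 0.13 for Xbp1 at the medium dose (TPM) and 0.21 for Atf4 at the low dose (TPM), all past the threshold. Asns at the medium dose (0.27, limma adjusted p = 0.053) passed without the trend (0.043) and with 0.1 FPKM added (0.025), and Ddit3 at the low dose (0.17, adjusted p = 0.075) passed without the second (0.049) or the third low-dose library (0.045).

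Between doses, 7 of the 8 genes differed in an F-test of the 3 plantain groups, Sesn2 being the exception, beside 38.4% of all genes. The medium dose was lower than the low dose in 6, beside 23.0% of all genes that differed and 12.2% that were lower: Trib3 (-0.74), Chac1 (-0.70), Asns (-0.69), Xbp1 (-0.31), Atf4 (-0.30) and Atf5 (-0.27). The high dose differed from the low dose in 5, beside 32.7%, with Xbp1 (0.29) higher and Asns (-0.51), Atf5 (-0.46), Atf4 (-0.31) and Ddit3 (-0.25) lower. The high dose differed from the medium dose in 5, beside 20.3%, with Xbp1 (0.60), Trib3 (0.46) and Chac1 (0.46) higher and Ddit3 (-0.23) and Atf5 (-0.19) lower. Of the 8 genes only Atf5 differed past the threshold, and in the same direction, at each step from the obese control through the low and medium to the high dose; Trib3, Chac1 and Xbp1 were higher at the low and at the high dose than at the medium dose. Over all 6 groups the F-test passed for all 8 genes, beside 72.1% of all genes. The differences of Ddit3, Trib3 and Chac1 between high and medium dose were lost in 7, 4 and 5 alternatives, and without the first high-dose library 2 of the 8 genes passed; that of Ddit3 between high and low dose was lost in 4: it was -0.13 under TPM (limma adjusted p = 0.19), -0.21 on recovered reads (0.11), unchanged in size in a fit of those 2 groups alone (0.063) and -0.16 without the first low-dose library (0.066). Under TPM the difference of Atf4 between high and low dose was -0.18, and on recovered reads that of Trib3 between high and medium dose was 0.69. Leaving out a library also added calls: Trib3 between high and low dose without the first high-dose library (-0.42, adjusted p = 0.027), Chac1 between the same doses without the third low-dose library (-0.40, adjusted p = 0.037), and Sesn2 between medium and low dose without the second medium-dose library (-0.15, adjusted p = 0.041).

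Other genes of the pathways were described from lists, beginning with the kinases and other regulators of eIF2. The shares of all tested genes that passed the threshold stand beside their counts: 26.7% were higher and 28.4% lower in the obese control relative to the normal control, and relative to the obese control 26.2% were higher and 25.6% lower with orlistat, 18.3% and 14.8% at the low dose, 21.8% and 20.1% at the medium dose and 26.6% and 25.3% at the high dose. Of 18 such genes, 2 were higher and 6 lower in the obese control than in the normal control (median -0.08), so 8 of 18 passed, beside 55.1% of all genes. Dele1, which relays mitochondrial stress to the kinase HRI, was higher (0.58 ± 0.03, limma adjusted p = 7.7e-10), with 42.1 ± 1.69 FPKM for the obese control and 27.7 ± 0.298 FPKM in the normal control (SD, n = 3 each). HRI itself (Eif2ak1) was lower (-0.40), as were PKR (Eif2ak2, -0.47), PERK (Eif2ak3, -0.24) and the eIF2 phosphatase subunits Ppp1r15b (-0.51) and Ppp1r15a (-0.21); GCN2 (Eif2ak4) did not pass (-0.04, adjusted p = 0.58). Against the obese control Dele1 fell with orlistat (-0.39) and at the low, medium and high dose (-0.25, -0.34 and -0.38), and Eif2ak1 rose (0.34, and 0.19, 0.22 and 0.33). Eif2ak2 rose with orlistat (0.26) and at the medium and high dose (0.31 and 0.37), and Eif2ak3 fell at the high dose (-0.24). Ppp1r15a, an ATF4-pathway gene that ends the response, rose at the low dose (0.24) and fell with orlistat and at the medium and high dose (-0.25, -0.23 and -0.28). The list as a whole had 3 higher and 3 lower with orlistat, 2 and 3 at the low dose, 2 and 3 at the medium dose and 2 and 4 at the high dose, beside 51.8%, 33.0%, 41.9% and 51.9% of all genes called. Under TPM these splits were 7 and 1, 3 and 2, 3 and 2, and 6 and 1, so no direction is given for it.

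Of 17 tested partners and signalling targets of ATF4, 10 were higher and 4 lower at the low dose (median 0.18), beside 18.3% higher and 14.8% lower of all genes. The counts were 5 and 6 with orlistat, 6 and 6 at the medium dose and 8 and 5 at the high dose, beside 51.8%, 41.9% and 51.9% of all genes called in either direction. In the obese control 5 were higher and 7 lower than in the normal control, beside 55.1%. At the low dose Jun rose (0.80 ± 0.03, limma adjusted p = 5.6e-11), as did Atf3 (0.73 ± 0.09, adjusted p = 1.1e-05), with 1.67 ± 0.245 FPKM at the low dose and 0.601 ± 0.0877 FPKM in the obese control; both genes are also in the immediate early list. Fgf21, a liver hormone induced by ATF4 and by fasting, fell with orlistat (-1.80 ± 0.11, adjusted p = 1.5e-09), with 4.75 ± 0.496 FPKM, against 19.0 ± 1.64 FPKM in the obese control. Cebpb, a partner of ATF4, fell at the low, medium and high dose (-0.29, -0.45 and -0.54) and not past the threshold with orlistat (-0.10, adjusted p = 0.10). Cebpg, another partner, was lower in the obese control than in the normal control (-0.24). Among relatives of the 8 genes, Sesn1 was lower in the obese control than in the normal control (-0.51) and higher with orlistat (0.46) and at each dose (0.25, 0.29 and 0.35) than in the obese control, opposite in sign to Sesn2 in the control and plantain comparisons. Trib1 was lower in the obese control than in the normal control (-0.80) and higher with orlistat (0.28) and at the low (0.43) and high dose (0.58) than in the obese control, but not past the threshold at the medium dose (0.02, adjusted p = 0.81). Chac2 rose at the medium and high dose (0.34 and 0.18), and Sesn3 likewise (0.25 and 0.20). Trib2 was below the filter, with 0.379 FPKM in the normal control and 0.463 to 0.666 FPKM in the other 5 groups.

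Of 18 tested genes of amino acid synthesis and transport linked to ATF4, 7 were higher and 6 lower in the obese control than in the normal control, beside 55.1% of all genes called; the amino acid transporter gene Slc1a4 rose (1.00 ± 0.08, limma adjusted p = 2.1e-08) and Got1, an aspartate aminotransferase, fell (-0.72 ± 0.03, adjusted p = 1e-11). Against the obese control, 6 were higher and 8 lower with orlistat, 5 and 3 at the low dose, 3 and 9 at the medium dose and 6 and 6 at the high dose, beside 51.8%, 33.0%, 41.9% and 51.9% of all genes called. Gpt2, an alanine aminotransferase, rose with orlistat (0.90), to 94.4 ± 3.03 FPKM, against 50.2 ± 0.970 FPKM in the obese control, and at the medium (0.79) and high dose (0.86). Shmt2, of mitochondrial serine breakdown, fell with orlistat (-0.37) and at the low and high dose (-0.31 and -0.29), and the glutamine transporter gene Slc38a2 fell at the medium dose (-0.51). Under TPM the split with orlistat was 7 higher and 6 lower.

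Of 21 aminoacyl-tRNA synthetase and tRNA export genes, many of which ATF4 can induce, 2 were higher and 5 lower in the obese control than in the normal control, beside 26.7% and 28.4% of all genes. More of them were lower under treatment: 13 with orlistat, and 7, 15 and 16 at the low, medium and high dose, with 2, 0, 0 and 1 higher (medians -0.18, -0.09, -0.22 and -0.22); the shares of all genes that were lower were 25.6%, 14.8%, 20.1% and 25.3%. Hars, the histidyl enzyme, fell in all 4 (-0.49, -0.32, -0.51 and -0.57). Tars, the threonyl enzyme, fell at the low dose (-0.40 ± 0.05, limma adjusted p = 1.8e-05) and the medium dose (-0.57 ± 0.05, adjusted p = 2.5e-07). This pattern depended on the scale, since under TPM 6 were higher and 5 lower with orlistat and 5 higher and 3 lower at the high dose, against 2 higher and 10 lower at the medium dose.

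In 3 of these 5 comparisons most of the called genes of the IRE1 and XBP1 arm had the opposite sign to Xbp1. Of 33, 19 were higher and 9 lower in the obese control than in the normal control (median 0.14), beside 26.7% and 28.4% of all genes, and Xbp1 was lower in that comparison. Creld2 and Sdf2l1, both ER stress genes of the folding machinery, rose (1.75 ± 0.08 and 0.94 ± 0.05, limma adjusted p = 2.3e-11 and 4.1e-10). Edem1, which directs misfolded proteins to disposal, fell (-1.14 ± 0.02, adjusted p = 2.2e-15), with 75.4 ± 0.461 FPKM in the obese control and 167 ± 1.53 FPKM in the normal control. The gene of the sensor IRE1 (Ern1) was slightly higher (0.12, adjusted p = 0.030). Under TPM the list split into 13 higher and 13 lower in this comparison.

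Relative to the obese control the same arm was mostly lower in every treatment. With orlistat 24 were lower and 3 higher, and at the low, medium and high dose 25, 24 and 25 were lower and 2, 2 and 3 higher (medians -0.39, -0.25, -0.28 and -0.34), beside 25.6%, 14.8%, 20.1% and 25.3% of all genes that were lower. Creld2 fell to 13.8 ± 0.946 FPKM with orlistat and to 18.3 ± 1.99, 16.5 ± 1.29 and 14.1 ± 0.846 FPKM along the doses, against 52.3 ± 0.752 FPKM in the obese control. Syvn1, the ubiquitin ligase of ER disposal, fell at the low, medium and high dose (-0.64, -0.80 and -0.81), and Sec61a1, the pore through which proteins enter the ER, fell in all 4 (-0.56 with orlistat, and -0.36, -0.41 and -0.46). Ern1 fell as well (-0.38, and -0.28, -0.31 and -0.36). Edem1 again went the other way and rose with orlistat (0.69 ± 0.02, adjusted p = 1.9e-12). At the low and high dose this majority of lower genes stood beside a higher Xbp1, and with orlistat beside a lower one; more genes were lower than higher under TPM, quantile scaling and recovered reads in all 4 treatments.

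The ATF6 arm and the ER chaperones were mostly higher in the obese control and lower under treatment. Of 14, 9 were higher and 2 lower in the obese control than in the normal control (median 0.30), beside 26.7% and 28.4% of all genes. Hspa5, the main ER chaperone, had 390 ± 0.770 FPKM in the obese control and 223.7 ± 1.10 FPKM in the normal control (0.80 ± 0.01, limma adjusted p = 9.2e-16). Against the obese control, 9 were lower and 2 higher with orlistat, 9 and 1 at the low dose, and 9 and 2 at the medium and at the high dose (medians -0.34, -0.30, -0.33 and -0.32), beside 25.6%, 14.8%, 20.1% and 25.3% of all genes that were lower. Hspa5 fell with orlistat (-0.82) and along the doses (-0.88, -1.05 and -1.06), and so did Hyou1, a helper chaperone (-1.41, and -1.17, -1.44 and -1.54). Atf6, the sensor of this arm, had the opposite sign: it was lower in the obese control than in the normal control (-0.48) and rose with orlistat (0.32) and at the medium and high dose (0.23 and 0.32), while the low dose did not pass (0.03, adjusted p = 0.64). More genes of this list were lower than higher in each treatment, and more were higher in the obese control, under all 4 scalings.

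Some marker sums of other cell types had their highest mean in the obese control. The Kupffer cell and endothelial sums given above did not. The sum of 10 hepatocyte markers was also highest there, at 85808 to 88299 FPKM, against 78614 to 83022 FPKM at the low dose, the next highest. So was the FPKM sum over all genes, at 600174 to 609662 in the obese control, against at most 594638 in any other library. The summed level of 10 stellate cell and fibroblast markers was 176 to 178 FPKM with orlistat and 214 to 219 FPKM in the obese control; it was 169 to 171, 169 to 179 and 166 to 169 FPKM along the doses and 162 to 164 FPKM in the normal control. The sum of 9 red blood cell genes was 1093 to 1462 FPKM with orlistat and 1383 to 1666 FPKM in the obese control; it was 945 to 1150.2, 1121 to 1378 and 1054 to 1289.6 FPKM along the doses and 856 to 905 FPKM in the normal control. That of 11 exocrine pancreas markers was 13.8 to 14.2 FPKM in the obese control and lower in every library of the other groups. Of these 11, 9 were under 1 FPKM in all 18 libraries and 2 were tested, so this sum rests on few genes. Of the stellate list, 5 were higher and 1 lower in the obese control than in the normal control, and relative to the obese control 3 were higher and 3 lower with orlistat, 0 and 7 at the low dose, 1 and 5 at the medium dose and 1 and 4 at the high dose. The Kupffer cell list was higher in 11 of 11 in the obese control relative to the normal control, and relative to the obese control 3 were higher and 1 lower with orlistat, 10 and 0 at the low dose, 0 and 10 at the medium dose and 0 and 9 at the high dose. Of 9 endothelial markers, 8 were higher than in the obese control in each treatment, and 1 was lower with orlistat. Of all tested genes, 26.7% were higher and 28.4% lower in the obese control than in the normal control. Relative to the obese control these shares were 26.2% and 25.6% with orlistat and 18.3% and 14.8% at the low dose. They were 21.8% and 20.1% at the medium dose and 26.6% and 25.3% at the high dose. The sum of 10 plasma cell and B cell markers, cell types in which Xbp1 is abundant, was 75.2 to 81.1 FPKM in the obese control and 66.2 to 69.0 FPKM in the normal control, the opposite order to Xbp1. The part of these markers in the ER lists was not tested.

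**Figure D5:**
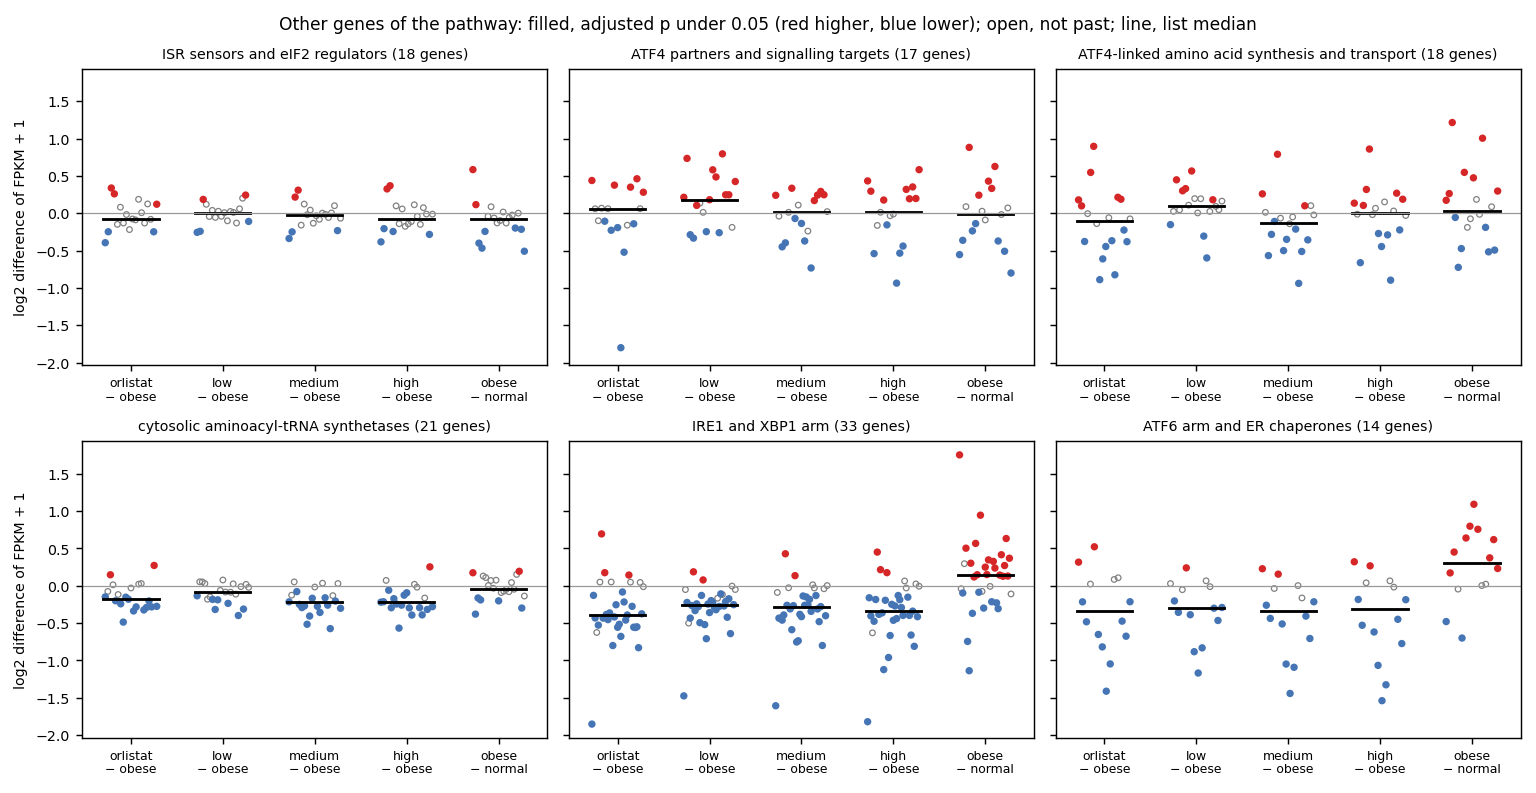
Log2 differences of FPKM + 1 for the tested genes of 6 pathway lists (panels) in 5 comparisons; filled points have a limma adjusted p under 0.05 (red higher, blue lower), open points do not, and the black line is the list median. The medians of the IRE1 and XBP1 arm (-0.25 to -0.39) and of the ATF6 arm (-0.30 to -0.34) lie below 0 in the 4 treatments and above 0 (0.14 and 0.30) in the obese control against the normal control.

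The likeness of other genes to these patterns was measured as the root mean square difference of log2 profiles centred on their mean over the 18 libraries, for the 6 genes whose group means spanned at least 0.5. Nearest to Atf5 was Galt (0.11), of galactose breakdown, followed by the tight junction gene Tjp3 (0.12) and an unannotated locus. Nearest to Xbp1 were Map3k5 (0.17), a stress-activated kinase, and Cryl1 (0.18). For Ddit3 they were Anapc11 (0.06), Serpina6 (0.08) and C8g (0.08), for Trib3 Jund (0.17), Arhgef3 (0.18) and Acot4 (0.20), for Asns Ogfrl1, Rpl9 and Rab30 (0.16 each), and for Chac1 Adora1 (0.18), Pla2g15 (0.19) and Pnpla7 (0.19). Among the 8 genes themselves the closest pair was Atf4 and Ddit3 (0.18) and the farthest Atf5 and Xbp1 (0.85). Profiles with small differences between groups lie near many genes by this measure, so it describes resemblance of size and shape and nothing more.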

How the data were processed

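Liver RNA-seq libraries (1 µg of RNA each, an Illumina kit, per the labels' protocols) were compared in 6 groups of 3. The authors deposited 1 table of FPKM for 33657 genes, with coordinates, lengths and symbols; 774 genes have no symbol. Bowtie 0.12.2, CASAVA 1.7 and the mouse build mm8 are named in the submitters' processing notes, while the identifiers are of the rat. The sources used here do not give the rat build, the annotation or the strand setting of the counting. Multiplied by gene length, the FPKM of 100% of genes fell on whole steps in each library (tolerance 0.001), so whole reads were recovered. The authors' scaling total was 0.966 to 1.05 times the recovered total; that factor differs between groups and cannot be told apart from them. Near-identical gene copies were not resolved.

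Genes that reached 1 FPKM in 3 or more samples were tested on the log2(FPKM + 1) scale. A single model of the 6 groups, with a mean-variance trend, was fitted in limma 3.58.1 under R 4.3.3. P-values are two-sided and adjusted by the Benjamini-Hochberg method over 11945 genes, with a threshold of 0.05. The fit was tested on simulated data. All 15 pairs of groups were compared, with F-tests over the 6 groups and the 3 doses. With 3 against 3 an exact permutation test cannot give a p below 0.1. Each library was taken as 1 replicate. Pairs within a group differed by more than counting noise (mean chi-square per gene 2.99 to 6.18 over 18 pairs). The median gene lay closer to counting noise, at 1.48 to 2.35 times its expected value. None of the pairs looks like a repeat deposit, but this does not show that the libraries come from different animals.

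The 8 genes and the pathway and marker lists were chosen with earlier results of these data known. Named beside the 8 genes were up to 3 genes per list and comparison, by smallest p among called genes with groups that did not overlap, and a set of kinases, partners and relatives whatever their value. The alternatives were another added constant (0.1), no filter, a filter at 5 FPKM, TPM, quantile normalization, voom on recovered reads, no trend, 2 groups alone, a replicate block, and leaving out each library. Promoter sequences are from RefSeq (GRCr8).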

Additional observations from a re-analysis of the deposited data

How the results depend on the processing

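Of 77 differences of single genes past the threshold (among 120), 64 stayed past it in every alternative. Counts of the 8 genes kept within 1.5 times their main value in 113 of 117 fits that left out a library and in 140 of 151 other settings. With a filter at 5 FPKM, which leaves Trib3, Asns and Chac1 untested by construction, the counts were 5 for low dose against obese control, 2 for low dose against normal control, 3 for high dose against orlistat, 4 for low dose against orlistat, 3 for medium against low dose, 3 for high against medium dose, 5 for the F-test of 6 groups and 4 for that of 3 doses. TPM gave 3 for orlistat against obese control. For high against medium dose (5 genes), the count was 3 with no filter and 3 in a fit of 2 groups, and 2 to 5 when a library was left out, with 2 without the first high-dose library; the cause was not tested.

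Directions that reversed, all but the first of differences that had not passed the threshold, were these. TPM gave 0.0139 for Atf4, high dose against obese control; 0.0592 for Xbp1, medium dose against obese control (quantile 0.0386, recovered reads 0.0219); 0.0495 for Chac1 and 0.0921 for Sesn2, orlistat against obese control (Sesn2 on recovered reads 0.0177); -0.0208 for Sesn2, medium dose against normal control; -0.0685 for Atf4, low dose against normal control (recovered reads -0.0297); -0.0403 for Atf4, medium dose against orlistat; 0.0720 for Sesn2, high against low dose (recovered reads 0.0163); 0.0698 for Atf4, high against medium dose (quantile 0.00696, recovered reads 0.00465); and 0.0270 for Ddit3, medium against low dose (recovered reads 0.0231). Leaving out single libraries gave ranges that crossed 0: -0.153 to 0.0112 for Asns, medium dose against normal control; -5.19e-05 to 0.0444 and -0.0337 to 0.0154 for Atf4, high dose against orlistat and against medium dose; -0.0244 to 0.0458 for Atf4 and -0.0131 to 0.134 for Ddit3, low dose against normal control; -0.0736 to 0.0702 for Ddit3, medium against low dose; -0.0414 to 0.0419 for Sesn2, medium dose against normal control; -0.123 to 0.108 for Trib3, high dose against normal control; and -0.106 to 0.0398, -0.149 to 0.0506 and -0.12 to 0.0914 for Chac1, obese against normal control, orlistat against normal control and orlistat against obese control. The cause was not tested.

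TPM moved the split of all called genes: 5177 were higher and 1612 lower with orlistat, against 3133 and 3055 on the deposited scale; 2688 and 1337, 3826 and 1479, and 5350 and 1541 at the low, medium and high dose, against 2183 and 1764, 2599 and 2404, and 3181 and 3018; and 2042 and 4668, against 3191 and 3387, in the obese control relative to the normal control. A replicate block ended the call of Asns at the low dose against the obese control (adjusted p = 0.0641, limma) and changed no other call of the comparisons with the obese control. Libraries with the same number deviated together no more than others (median r -0.019 over 45 pairs, 0.0027 over 90 pairs of different number). Of 18 libraries, 4 correlated best with their own number. No pairing by number was seen, but with 3 libraries per group a weak one could be missed. Depth limits Trib3, Asns and Chac1, which had as few as 41, 27 and 19 reads.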
